A study of Homo sapiens with 6 samples.

Results

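The genes described here encode the subunits of the oxidative phosphorylation system, complexes I to V of the inner mitochondrial membrane, and were chosen by their names. A protein-coding gene was a member if its symbol was that of a NADH dehydrogenase subunit (NDUFA, NDUFB, NDUFC, NDUFS or NDUFV with a number), a succinate dehydrogenase subunit (*SDHA* to *SDHD*), a cytochrome bc1 subunit (UQCR), a cytochrome c oxidase subunit (COX4 to COX8), an ATP synthase subunit (ATP5F1, ATP5M or ATP5P) or a subunit encoded on the mitochondrial chromosome. This gave 99 members among 58884 counted genes, of which 19869 are protein-coding. The nuclear genome encodes 86 of them and the mitochondrial chromosome 13. *NDUFA4*, which is named after complex I, is counted here with complex IV, the complex it is now assigned to.

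RNA was sequenced from HSC-4, a long-established cell line from a human squamous carcinoma of the mouth, in 3 control libraries and in 3 libraries of cells given DAPT. DAPT was used at 50 μM for 24 h. It inhibits γ-secretase, the protease that frees the intracellular domain of Notch receptors. The paper describes the control cells as treated with the vehicle, DMSO. The deposited columns for these libraries bear the letters GM, and the deposited series design speaks of growth medium. The vehicle of the controls is therefore uncertain, and if they received growth medium alone, DAPT and its vehicle cannot be told apart. Nothing in the labels says whether the 3 libraries of a group came from separate cultures, and the p-values measure the spread between these libraries. All 6 libraries are of this single tumor line.

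Complexes I to IV pass electrons from NADH and succinate to oxygen through ubiquinone and cytochrome c, and complexes I, III and IV pump protons while doing so. Complex V, the ATP synthase, lets the protons flow back through a ring of c subunits and makes ATP. Most subunits are encoded in the nucleus and imported, while a few very hydrophobic ones are transcribed and translated inside the organelle, so that complexes I, III, IV and V are built from the products of both genomes and complex II from nuclear genes alone. Dividing tumor cells use the system for ATP and also to keep aspartate and pyrimidine synthesis running.

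The total counts were between 12276313 and 16317672 per library, and levels are given as CPM, reads per gene scaled to a common library size after TMM normalization. TMM, which scales libraries to a common level of most genes, gave factors of 0.980 to 0.986 for the controls and 1.01 to 1.02 for DAPT. All 5 Notch targets listed for a check of the treatment were lower, and *HES1* and *HEY1* were lower with DAPT in every library, with log2 fold changes of -0.77 and -1.98 (adjusted p = 7.2e-08 and 2.03e-13, by the quasi-likelihood F test of edgeR after Benjamini-Hochberg correction). The keratin *KRT5*, a marker of squamous epithelium, was at 2701 ± 61.9 CPM in the controls and 1315 ± 43.4 CPM with DAPT (mean ± SD, n = 3, as for all means below), whereas its partner *KRT14* was nearly absent, at 3.17 ± 0.319 and 0.443 ± 0.387 CPM. Of the 9 genes listed as markers of this epithelium 6 were lower with DAPT, 2 (*CDH1* and *EPCAM*, both 0.27 on the log2 scale) were higher and *DSG3* did not pass. Control replicate 1 stood apart from the other libraries. The fibroblast gene *COL1A2* was at 215 CPM in it, against 2.02 and 0.663 CPM in the other controls and 0.195, 0.292 and 0.845 CPM with DAPT. Of 14 markers of other cell types, 5 (*COL1A1*, *COL1A2*, *COL3A1*, *DCN* and *PDGFRB*) were more than 5 times as high in control replicate 1 as in any other library, and 4 had no read anywhere. The summed level of the 14 was 548 CPM in that library, 57.3 to 58.4 CPM in the other controls and 50.3 to 55.9 CPM with DAPT. The main counts and sums are therefore also given without control replicate 1.

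After the filter on low counts, 91 members were tested, 78 nuclear and all 13 mitochondrial, within one fit over 15001 genes. With DAPT, 34 of them were lower at an adjusted p-value under 0.05 and 1 was higher. Of all tested genes, 18.0% were lower and 17.2% higher by the same rule. The lower members were 28 of the 78 nuclear genes (35.9%) and 6 of the 13 mitochondrial genes (46.2%), and the higher one was *COX7A2L*. In 44 members all 3 DAPT libraries lay below all 3 controls, which was so in 22.7% of all tested genes, and in 3 members they lay above, against 23.6%. The changes were small: the median log2 fold change was -0.13 over the nuclear and -0.27 over the mitochondrial members, beside 0.01 over all tested genes. Values below 0 were found in 66 of 78 nuclear and 13 of 13 mitochondrial members and in 48.7% of all genes. All mitochondrial members but *MT-ND6* are read from a shared promoter, so they are not independent observations. The nuclear members had a median level of 66.3 CPM, beside 25.5 CPM over all tested genes. Among the 6944 genes at a mean of at least 30 CPM, 22.6% were lower and 26.7% had all DAPT libraries below all controls, and of the 76 members in that range these were 33 and 42. Without control replicate 1, 29 nuclear members were lower, 26 of them among the 28, and 5 mitochondrial members, beside 19.1% of all genes tested in that fit. When the libraries were scaled by their totals alone, without the TMM factors that differed between the groups, 19 nuclear and 5 mitochondrial members were lower. The nuclear median was then -0.09 and that of all genes 0.06, and 14.4% of all genes were lower. In bulk RNA of this kind, fewer cells of a type and less of an RNA per cell cannot be told apart.

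**Figure D1:**
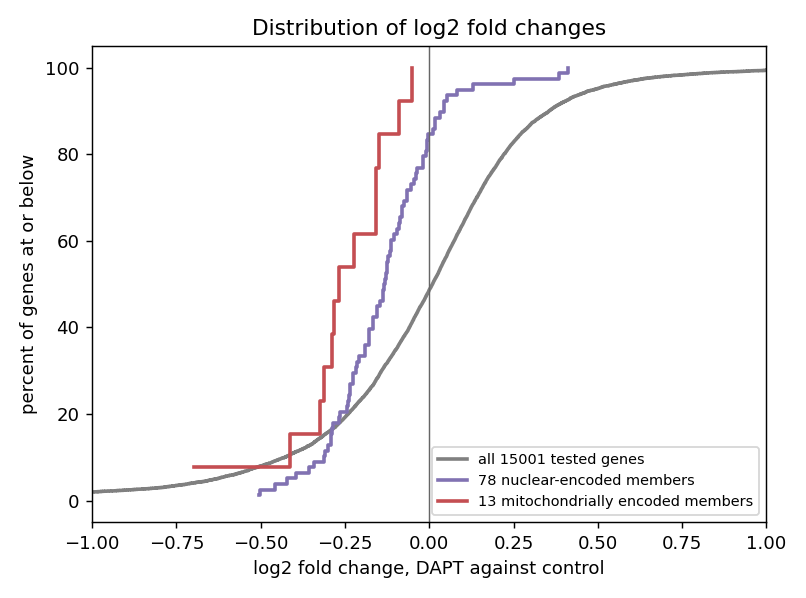
Cumulative distribution of log2 fold changes, DAPT against control (x axis), as the percent of genes at or below each value (y axis), for all 15001 tested genes, the 78 tested nuclear members and the 13 mitochondrial members; the x axis ends at -1 and 1, and genes beyond are not drawn. The nuclear curve crosses its middle at -0.13 and the mitochondrial curve at -0.27, left of the 0.01 of all genes.

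The ATP synthase had the largest share of lower genes among the nuclear parts of the complexes, 9 of 17 tested (52.9%), and none was higher. The share of lower genes among all tested genes was 18.0%. All 17 had a log2 fold change below 0, with a median of -0.18. The largest changes were those of the genes of subunit c, which forms the ring that turns as protons pass. *ATP5MC1* (chromosome 17, 48892765 to 48895871, GRCh38) was at 68.8, 69.5 and 72.1 CPM in the controls and 44.8, 53.2 and 50.6 CPM with DAPT. Every DAPT value was below every control value, and the log2 fold change was -0.50 (SE 0.07, edgeR adjusted p = 3.85e-06). *ATP5MC3* (chromosome 2, 175176258 to 175184607) went from 175, 172 and 162 CPM to 102, 129 and 129 CPM, a log2 fold change of -0.50 (SE 0.08, edgeR adjusted p = 2.68e-04). The third gene of the family, *ATP5MC2*, which encodes the same mature protein with a different import sequence, was at 107, 117 and 115 CPM in the controls and 114, 113 and 110 CPM with DAPT. These groups overlapped, and the log2 fold change of -0.01 (SE 0.05) did not pass. *ATP5MC2* is named here after its values were seen.

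The catalytic F1 head is built from α and β subunits around a central γ stalk. *ATP5F1A* and *ATP5F1B*, which encode α and β, were the most abundant nuclear members in CPM, at 621 ± 20.2 and 499 ± 15.1 CPM in the controls and 535 ± 48.8 and 427 ± 24.1 CPM with DAPT. Both fell, by 0.22 and 0.23 on the log2 scale, as did *ATP5F1C*, the γ subunit, by 0.16. *ATP5F1E*, the small ε subunit, was at 363, 352 and 329 CPM in the controls and 225, 317 and 312 CPM with DAPT. Here the libraries did not overlap, but DAPT replicate 1 lay far below the other DAPT libraries, and the change of -0.29 (SE 0.15) did not pass. The δ subunit gene *ATP5F1D*, also of the F1 part, had a value of -0.30 (SE 0.11) and did not pass either. Of the peripheral stalk and the membrane part, *ATP5PF* (-0.31), *ATP5ME* (-0.29), *ATP5MK* (-0.18) and *ATP5MJ* (-0.18) were lower, and *ATP5PB*, *ATP5PD*, *ATP5PO*, *ATP5MF* and *ATP5MG* did not pass. *ATP5PO*, *ATP5MF* and *ATP5MG* share 63.8%, 37.2% and 24.4% of their canonical transcripts with same-strand genes, and reads there were not counted.

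**Figure D2:**
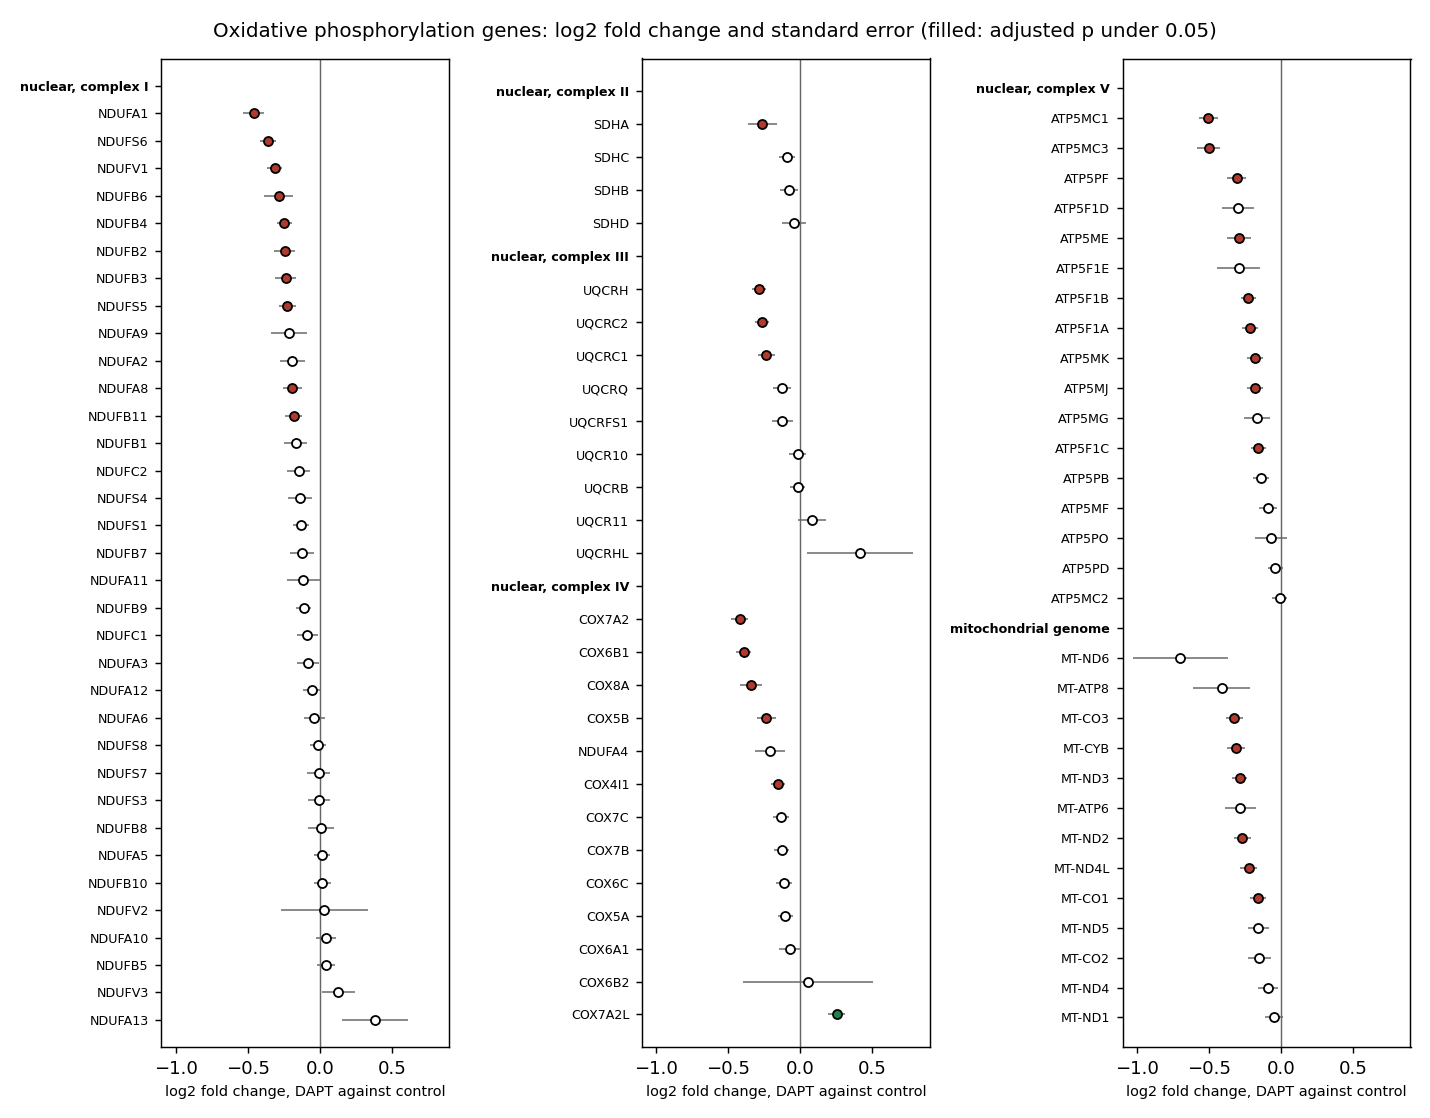
Log2 fold change of the tested members reported here, DAPT against control (x axis), with its standard error, by complex and genome and in order of size; filled points have an adjusted p-value under 0.05, red for lower and green for higher. The 34 lower members lie between -0.50 and -0.16, and *COX7A2L* is the 1 higher member, at 0.25.

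In complex I, which takes electrons from NADH, 10 of 35 tested nuclear genes were lower (28.6%) and none was higher, with a median of -0.12. Of all tested genes 18.0% were lower, and of those at a mean of at least 30 CPM 22.6%. *NDUFA1*, a small membrane subunit needed for the complex to assemble, was at 69.1, 68.9 and 66.0 CPM in the controls and 42.9, 55.0 and 50.9 CPM with DAPT. The groups were well apart, at a log2 fold change of -0.46 (SE 0.07, edgeR adjusted p = 6.52e-05). *NDUFS6*, a zinc-binding subunit of the matrix arm, was at 80.3, 86.5 and 85.8 CPM and then at 68.9, 63.1 and 64.8 CPM, a log2 fold change of -0.36 (SE 0.06, edgeR adjusted p = 4.32e-05). *NDUFV1*, which carries the flavin that receives the electrons of NADH, was at 296, 322 and 328 CPM in the controls and 241, 255 and 265 CPM with DAPT, and fell by 0.31 on the log2 scale. *NDUFV1* was the only one of the 7 nuclear genes of the catalytic core to pass (14.3%), and the median of the 7 was -0.01. Among these 7, *NDUFV2* had 10 to 23 reads per library and shares most of its canonical transcript with a same-strand gene. Its change could not be followed. The subunits of the NDUFB series lie in the membrane arm, and 5 of the 11 were lower (45.5%). These were *NDUFB6* (-0.28), *NDUFB4* (-0.24), *NDUFB2* (-0.24), *NDUFB3* (-0.24) and *NDUFB11* (-0.18). *NDUFB6* was the only lower nuclear member whose groups overlapped, with 61.8, 69.2 and 65.2 CPM in the controls and 45.9, 51.7 and 63.8 CPM with DAPT. Without control replicate 1, *NDUFB3* and *NDUFB6* no longer passed, at log2 fold changes of -0.14 and -0.33 (edgeR adjusted p = 0.0874 and 0.130). *NDUFS5* (-0.22) and *NDUFA8* (-0.19) were also lower, while both NDUFC genes did not pass.

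Complex III moves electrons from ubiquinol to cytochrome c. *UQCRC1* and *UQCRC2*, its large core subunits facing the matrix, and *UQCRH*, the acidic hinge subunit at the cytochrome c side, were the 3 lower genes of 9 tested. That is 33.3%, beside 18.0% of all tested genes. *UQCRC2* was at 176, 172 and 168 CPM in the controls and 138, 144 and 147 CPM with DAPT, a log2 fold change of -0.27 (SE 0.05, edgeR adjusted p = 2.54e-04). *UQCRH* was at 203, 198 and 197 CPM and then at 154, 169 and 167 CPM, and fell by 0.29, and *UQCRC1* fell by 0.24. In none of these 3 genes did the groups overlap. *UQCRB*, *UQCRQ*, *UQCR10*, *UQCR11* and the Rieske iron-sulfur protein gene *UQCRFS1* did not pass. *UQCRHL*, an intronless copy of *UQCRH*, was at 0.810, 0.794 and 0.497 CPM in the controls and 0.844, 0.731 and 1.31 CPM with DAPT, too few reads to follow a change.

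Complex IV reduces oxygen to water. Of its 13 tested nuclear genes 5 were lower (38.5%, against 18.0% of all genes) and 1 was higher (7.69%, against 17.2%), with a median of -0.14. The lower ones were *COX7A2* (-0.42), *COX6B1* (-0.39), *COX8A* (-0.34), *COX5B* (-0.24) and *COX4I1* (-0.16), all small subunits that surround the catalytic core. *COX7A2* was at 73.3, 71.6 and 70.7 CPM in the controls and 49.4, 55.4 and 56.4 CPM with DAPT (SE 0.06, edgeR adjusted p = 1.7e-05). *COX6B1* (chromosome 19, 35648223 to 35658861) was at 120, 128 and 124 CPM and then at 94.3, 92.0 and 95.8 CPM (SE 0.05, edgeR adjusted p = 3.81e-06). In both genes the DAPT libraries were below all controls, and *COX6B1* had the smaller SD with DAPT, 1.92 CPM against 3.81 CPM. *COX7A2L* (chromosome 2, 42333546 to 42425088) moved the other way. It resembles *COX7A2* in sequence and is known for its place in supercomplexes of complexes III and IV. Its level was 98.5, 97.6 and 85.4 CPM in the controls and 110, 115 and 111 CPM with DAPT, a log2 fold change of 0.25 (SE 0.06, edgeR adjusted p = 0.0016), and it passed without each library in turn. *NDUFA4* was at 214, 212 and 199 CPM and then at 149, 195 and 198 CPM, where the low DAPT value is again that of replicate 1, and its change of -0.21 (SE 0.10) did not pass. *COX5A*, *COX6A1*, *COX6C*, *COX7B* and *COX7C* had values between -0.14 and -0.07 and did not pass.

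**Figure D3:**
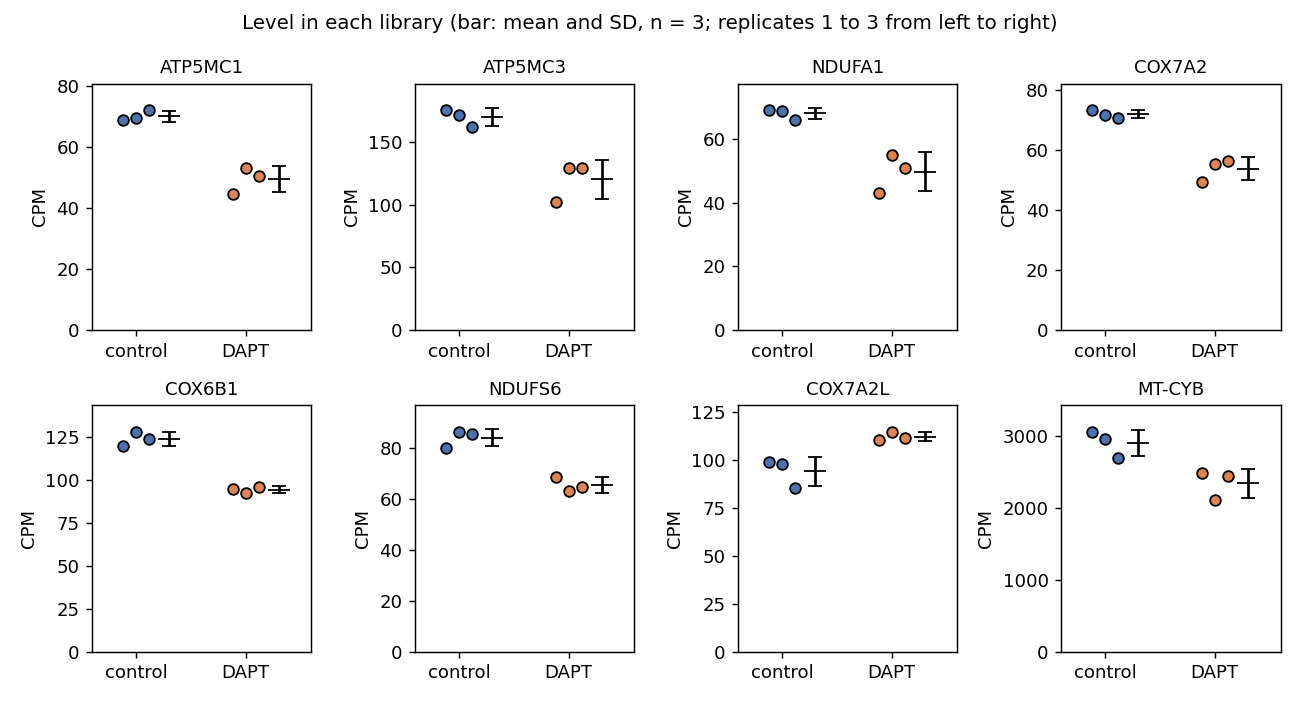
CPM (y axis, from 0) of 8 members in each library, with replicates 1 to 3 from left to right in each group and the mean and SD (n = 3) beside them. In *ATP5MC1*, *ATP5MC3*, *NDUFA1*, *COX7A2*, *COX6B1*, *NDUFS6* and *MT-CYB* the DAPT libraries lie below all controls, and in *COX7A2L* above them.

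Complex II, succinate dehydrogenase, also serves the tricarboxylic acid cycle. Its flavoprotein gene *SDHA* was at 17.001, 17.33 and 18.88 CPM in the controls and 16.76, 13.02 and 14.29 CPM with DAPT, a log2 fold change of -0.26 (SE 0.10, edgeR adjusted p = 0.0455). The groups nearly touched, and the call was lost in 4 of the 6 fits that left a library out. *SDHB*, *SDHC* and *SDHD*, at -0.08, -0.10 and -0.04, did not pass. *SDHA* shares 69.4% of the exon bases of its canonical transcript with an overlapping gene on the same strand, and reads within 2 genes were not counted, so its level here is that of the remaining bases.

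The mitochondrial chromosome is copied into long RNAs from either strand, which are cut at the tRNAs between the genes. All its protein genes but *MT-ND6* are read from the heavy-strand promoter, and 2 pairs overlap within a shared messenger. These stretches are shown because reads that lie across them belong to both genes, and the counting leaves out such reads. Each is given 5′ to 3′ on the genes' strand from the GRCh38 mitochondrial sequence, with the start codon of the downstream gene in capitals.
MT-ATP8 and MT-ATP6, chrM:8527-8572, plus strand: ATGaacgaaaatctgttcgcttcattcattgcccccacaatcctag
MT-ND4L and MT-ND4, chrM:10760-10766, plus strand: ATGctaa
The first overlap covers 46 bases, or 22.2% of *MT-ATP8*, and the second 7 bases. *MT-ATP6* ends and *MT-CO3* begins at the same base, 9207, so reads across that base were left out too.

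All 13 mitochondrially encoded subunits had log2 fold changes below 0, from -0.70 to -0.05, and 6 passed. *MT-CYB*, the cytochrome b of complex III and its only subunit from this genome, was at 3063, 2957 and 2704 CPM in the controls and 2483, 2108 and 2443 CPM with DAPT, a log2 fold change of -0.31 (SE 0.06, edgeR adjusted p = 7.57e-04). *MT-CO3* was at 3998, 3678 and 3703 CPM and then at 3360, 2854 and 2875 CPM, and fell by 0.32. In both genes every DAPT library was below every control. *MT-CO1*, which holds the oxygen-reducing site of complex IV, was at 7765, 7388 and 7062 CPM in the controls and 6883, 6123 and 6900 CPM with DAPT, and fell by 0.16 (SE 0.06, edgeR adjusted p = 0.0314). Without control replicate 1 its log2 fold change was -0.12, and the call was lost (edgeR adjusted p = 0.0657). *MT-CO2*, at -0.15, did not pass. Of the 7 complex I subunits on this chromosome, *MT-ND2* (-0.27), *MT-ND3* (-0.29) and *MT-ND4L* (-0.22) were lower, and *MT-ND1*, *MT-ND4*, *MT-ND5* and *MT-ND6* did not pass. *MT-ND1* and *MT-ND4* had small values of -0.05 and -0.09, with DAPT replicate 1 above all controls in the first and above 2 of them in the second. *MT-ND4* and *MT-ND4L*, which share a messenger, thus fell on different sides of the threshold, and the difference between them was not tested.

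The mitochondrially encoded subunits of the ATP synthase, *MT-ATP6* and *MT-ATP8*, had values of -0.28 (SE 0.11) and -0.41 (SE 0.20) and did not pass. *MT-ATP8* was at 1107 CPM in control replicate 1 and at 830 and 779 CPM in the other controls, and without that library its value was -0.24. *MT-ATP6* was at 2870, 2505 and 2510 CPM in the controls and 2533, 1963 and 1990 CPM with DAPT. DAPT replicate 1 lay above 2 of the controls, and without it the log2 fold change was -0.41 (edgeR adjusted p = 2.14e-05). *MT-ND6*, the light-strand gene, had the largest value of the 13, -0.70, with an SE of 0.33. It was at 50.2, 48.8 and 48.3 CPM in the controls and 17.1, 37.6 and 36.8 CPM with DAPT. All DAPT libraries were below the controls, but replicate 1 was far below the other DAPT libraries. Without that library the log2 fold change was -0.40 (edgeR adjusted p = 3.71e-04), and 10 mitochondrial members passed in place of 6. Of all genes tested in that fit 15.6% were lower. The ribosomal RNAs of the same chromosome, *MT-RNR1* (0.02) and *MT-RNR2* (-0.14), did not pass.

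**Figure D4:**
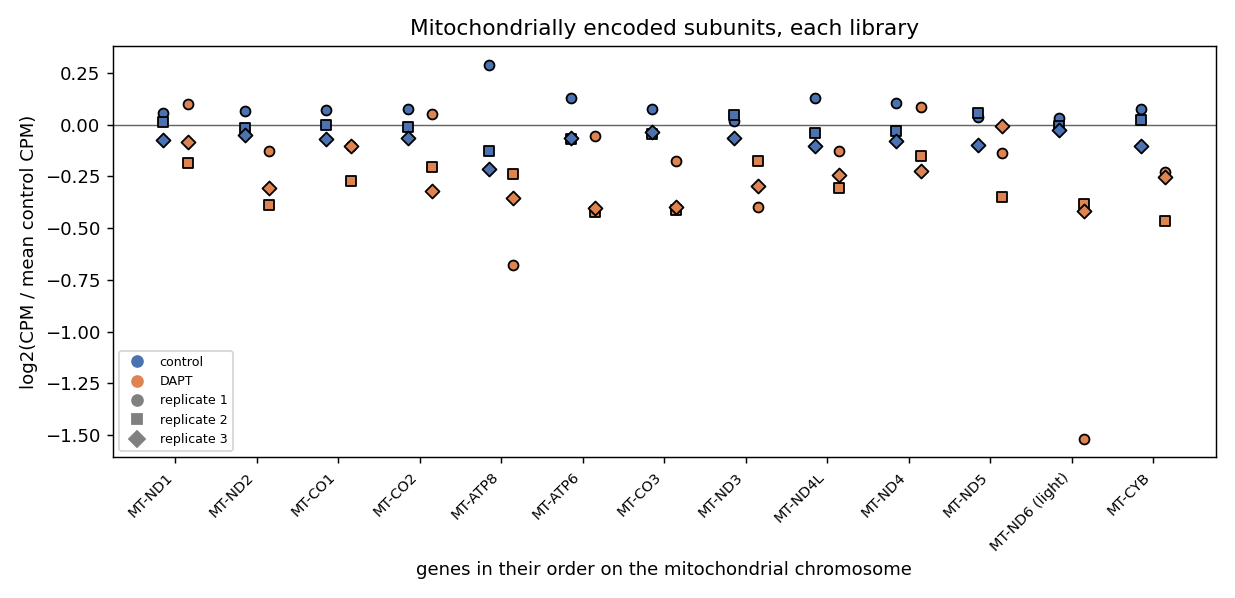
Log2 of the CPM over the mean control CPM (y axis) of the 13 mitochondrially encoded subunits in each library, in their order on the chromosome (x axis); color gives the group, the symbol shape the replicate, and light marks the light-strand gene. DAPT replicate 1 (circles) lies lowest of its group in *MT-ND6*, *MT-ATP8* and *MT-ND3* and above at least 2 of the controls in *MT-ND1*, *MT-CO2*, *MT-ATP6* and *MT-ND4*.

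Parts of the mitochondrial chromosome have nearly identical copies on nuclear chromosomes, and reads that match both places equally were not counted. *MTATP6P1* on chromosome 1 had 21.9 to 27.6% as many reads as *MT-ATP6*, and *MTND2P28* 20.6 to 25.2% as many as *MT-ND2*. *MTATP6P1* itself was lower with DAPT by 0.31 on the log2 scale (edgeR adjusted p = 3.1e-05). With the copies' reads added to the mitochondrial genes, *MT-ATP6* also passed (edgeR adjusted p = 0.0119) and 7 of the 13 were lower. In that fit 18.1% of all tested genes were lower.

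The mitochondrial members together were at 40704, 37988 and 36465 CPM in the controls and 36600, 31745 and 32530 CPM with DAPT, a difference of -12.4%. These sums overlapped, since DAPT replicate 1 lay above control replicate 3, and without control replicate 1 the difference was -9.68%. The nuclear members together were at 7862, 7914 and 7765 CPM and then at 6580, 7164 and 7099 CPM, a difference of -11.5%, or -11.4% without control replicate 1. Here the groups were apart. The difference of the nuclear sums was -9.85% in complex I, -6.24% in complex II, -10.5% in complex III, -10.7% in complex IV and -14.0% in complex V. In complex II alone the sums overlapped, at 222, 225 and 224 CPM against 200, 207 and 222 CPM. The ratio of the mitochondrial to the nuclear sum was 4.89 ± 0.253 in the controls and 4.86 ± 0.614 with DAPT. DAPT replicate 1 had the lowest nuclear sum of all libraries and a ratio of 5.56, the highest. It was the lowest DAPT library in 55 of 78 nuclear members but in only 3 of 13 mitochondrial members, where it was the highest in 8. Without DAPT replicate 1, 25 nuclear members were lower, 22 of them among the 28, and the nuclear median was -0.10. In that fit 15.6% of all tested genes were lower.

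**Figure D5:**
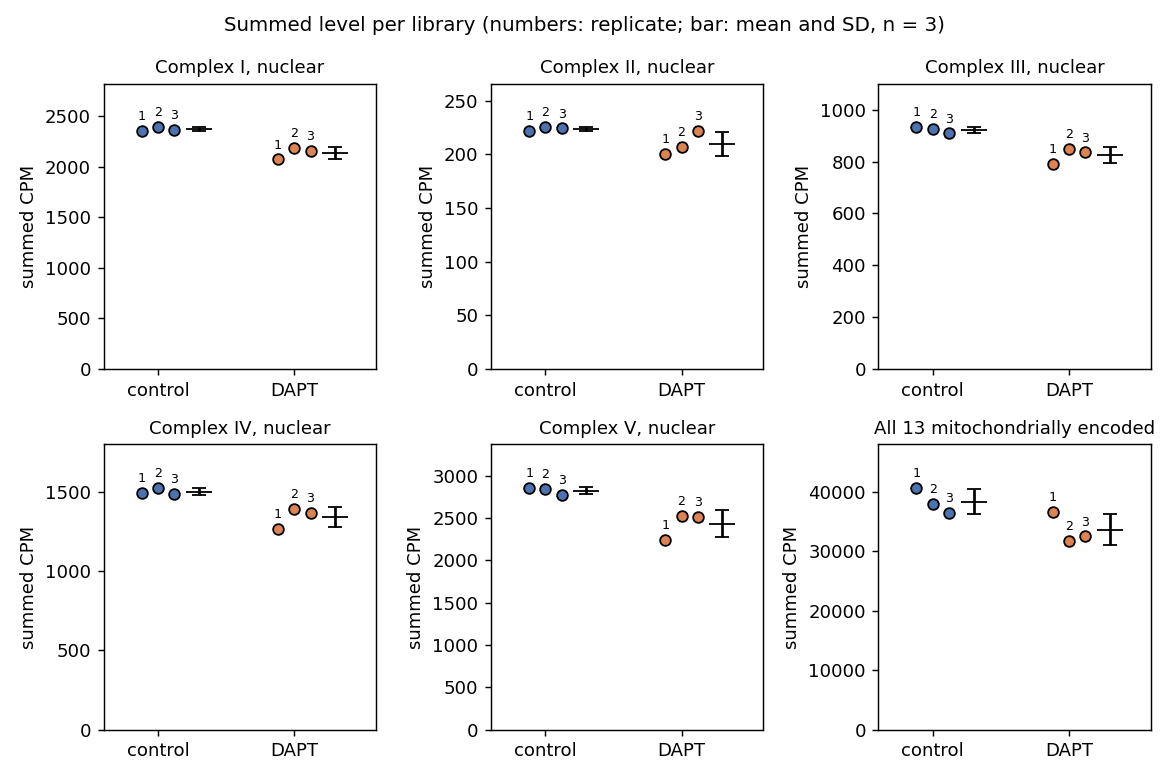
Summed CPM (y axis, from 0) of the nuclear members of each complex and of the 13 mitochondrially encoded members, one point per library with its replicate number, and the mean and SD (n = 3). The DAPT points lie below all controls in complexes I, III, IV and V, and overlap with them in complex II and in the mitochondrial sum.

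Levels between genes were compared per kilobase of the canonical transcript, as CPM per kb in the controls. Mitochondrial genes stood above all nuclear members, with *MT-CO2* at 9926 ± 487 and *MT-ND4* at 5010 ± 333 CPM per kb, except *MT-ND6*, which at 93.5 ± 1.87 was within the range of the nuclear genes. Among the nuclear members *UQCRH* (371 ± 6.33), *COX4I1* (328 ± 10.2), *NDUFS5* (301 ± 17.5), *ATP5F1B* (284 ± 8.57) and *SDHC* (84.1 ± 1.59) were the highest of their complexes. With the length of all annotated exons in place of the canonical transcript, *COX8A* led complex IV and *SDHB* complex II, so the order within a complex depends on the length used. *COX8A* shares 35.4% of its canonical transcript with a same-strand gene, so its level here is that of the remaining bases. The lowest tested members of complexes IV, I and III were *COX6B2* (0.476 ± 0.311), *NDUFV2* (1.36 ± 0.359) and *UQCRHL* (2.54 ± 0.639). The low values of *NDUFV2*, *NDUFA13* and *NDUFA7* coincide with exons shared with a same-strand gene, over 90.0%, 83.9% and 77.9% of their canonical transcripts, so the counts do not give the level of these subunits. *NDUFA13*, at 1.77 ± 0.193 and 2.33 ± 0.109 CPM, had a log2 fold change of 0.38 (SE 0.23) that did not pass.

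The 8 members that did not enter the test were *NDUFA7*, with 2 to 6 reads per library, 5 complex IV isoforms of other tissues, *ATP5MGL*, a relative of *ATP5MG*, and a readthrough gene. *COX4I2*, *COX6A2*, *COX7B2*, *COX8C* and *ATP5MGL* had 0 reads in all 6 libraries, which allows up to 0.184 to 0.244 CPM at these depths (3 counts, counting error only). *COX6A2* is the isoform of heart and skeletal muscle, *COX4I2* is best known from lung, and *COX7B2* and *COX8C* from testis. Their common counterparts *COX6A1*, *COX4I1*, *COX7B* and *COX8A* were at 29.96, 250, 111 and 63.6 CPM in the controls. *COX6A1* and *COX8A* share 32.6% and 35.4% of their canonical transcripts with same-strand genes, and reads there were not counted. *COX7A1*, the muscle isoform beside *COX7A2*, had 8 reads in control replicate 1, 1 in control replicate 2 and 0 elsewhere, so its reads followed the library with the fibroblast markers. *ATP5MF-PTCD1*, a readthrough of 2 neighboring genes, had 0 to 4 reads.

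The lists of genes around the complexes are read beside the 18.0% lower and 17.2% higher of all tested genes. Of 5 carriers and subunits outside the naming rule, 1 was lower: *NDUFAB1*, the acyl carrier protein, which fell by 0.23 (edgeR adjusted p = 0.035). *CYC1*, the cytochrome c1 of complex III, was at 92.8, 105 and 103 CPM in the controls and 81.1, 93.7 and 94.4 CPM with DAPT, and its value of -0.16 did not pass. *CYCS*, which is cytochrome c itself, and the ATP synthase inhibitor *ATP5IF1* had values of -0.08 and 0.08 and did not pass. Of 55 tested assembly factors of complexes I to V, 8 were lower (14.5%) and 6 higher (10.9%), with a median of -0.01, so that neither share was above that of all genes. For complex I, 4 of 19 were lower, among them *NDUFAF8* (-0.36), *ECSIT* (-0.29) and *ACAD9* (-0.27), and none was higher. For complex IV, 3 of 22 were lower, *COX16* (-0.52), *COA7* (-0.28) and *COA6* (-0.26), and 2 were higher. The higher ones were *COX19*, a helper of copper delivery to the oxidase, at 37.3, 41.8 and 37.5 CPM in the controls and 52.9, 53.2 and 51.2 CPM with DAPT (log2 fold change 0.43, edgeR adjusted p = 3.94e-05), and *COX20* (0.30), a chaperone of the COX2 protein. *UQCC2* (-0.28) was lower and *LYRM7* (0.23) and *TTC19* (0.21) were higher among 6 factors of complex III. None of 4 factors of complex II passed, and 2 of 4 of complex V, *TMEM242* (0.20) and *ATPAF1* (0.14), were higher.

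Of 26 genes for transcription of the mitochondrial chromosome and handling of its RNA, 8 were lower (30.8%, against 18.0% of all genes) and none was higher (against 17.2%). *SLIRP* and *LRPPRC* form the complex that stabilizes mitochondrial messengers. *SLIRP* was at 59.4, 61.7 and 59.4 CPM in the controls and 45.4, 45.3 and 43.8 CPM with DAPT, a log2 fold change of -0.42 (SE 0.06, edgeR adjusted p = 1.5e-05), and *LRPPRC* fell by 0.16. *TBRG4* (-0.33) and *FASTKD5* (-0.27), of the *FASTK* family of mitochondrial RNA-binding proteins, were lower as well. The promoter factor *TFAM* (-0.14) and the RNA polymerase *POLRMT* (-0.13) did not pass. In maintenance of the mitochondrial DNA, 1 of 14 genes was lower (7.14%) and 2 were higher (14.3%), beside 18.0% and 17.2% of all genes. The nuclease and helicase *DNA2* fell by 0.51. *RRM2B* and *TK2*, which supply deoxynucleotides, rose by 0.38 and 0.24, and the other 11 did not pass.

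Of 9 tested regulators of mitochondrial gene expression, 2 were lower (22.2%), a share near the 18.0% of all genes. *MYC* was at 67.5, 72.4 and 72.8 CPM in the controls and 41.9, 40.8 and 41.8 CPM with DAPT, far apart, at a log2 fold change of -0.77 (SE 0.06, edgeR adjusted p = 2.7e-09). *PPARGC1B*, a coactivator, was at 5.23, 5.27 and 5.96 CPM and then at 3.508, 4.534 and 3.995 CPM (log2 fold change -0.45, edgeR adjusted p = 0.0308). Its better-known relative *PPARGC1A* had 1 read in all libraries together. *NRF1* (0.01) and *GABPA* (0.05), the classical activators of these genes, and *PPRC1* (-0.16) and *ESRRA* (-0.09) did not pass.

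Of 13 enzymes of the tricarboxylic acid cycle, which feeds complexes I and II, 4 were lower (30.8%, against 18.0% of all genes). Higher was 1 of the 13 (7.69%, against 17.2%). Fumarase, *FH*, was at 119, 114 and 114 CPM in the controls and 84.8, 90.7 and 91.4 CPM with DAPT (log2 fold change -0.38, edgeR adjusted p = 8.69e-06). *MDH2* (-0.19) and *SUCLG2* (-0.16) were lower as well. Of 14 mitochondrial chaperones and proteases, 4 were lower (28.6%) and 3 higher (21.4%), beside 18.0% and 17.2% of all genes. *HSPE1* (-0.41), *TRAP1* (-0.36) and *HTRA2* (-0.33) were lower, and the protease *LONP1* (0.23), *DNAJA3* (0.22) and *HSPA9* (0.16) were higher.

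The promoters of nuclear members were searched for 3 motifs in the 250 bases before the RefSeq start (GRCh38.p14), on both strands. Of the 86 nuclear members, 69 had a promoter entry. The NRF1 motif (GCGC, then any base, then TGCGC) was found in 15 of them (21.7%) and in 8.81% of 15321 protein-coding genes. The ETS motif CCGGAAGT, to which *GABPA* binds, was found in 12 (17.4%), against 5.92%, and the E-box CACGTG of *MYC* in 6 (8.70%), against 9.78%. Both kinds of member carried these motifs: the NRF1 motif stood in 6 of 25 lower members and 8 of 39 that did not pass, the ETS motif in 6 and 6, and the E-box in 1 and 4. A match is a run of letters and no evidence of binding.

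The matches in the lower members are shown because the factors named are those known for these genes. Each line gives up to 10 bases on either side of the match, 5′ to 3′ on the gene's strand, with the motif or its reverse complement in capitals. The first set holds the NRF1 motif.
ATP5ME, chr4:674476-674505, minus strand: cgcagcaactGCGCAGGCGCagccgatgat
ATP5ME, chr4:674431-674460, minus strand: cagcctttgtGCGCGTGCGCctcacgtgac
SDHA, chr5:218144-218173, plus strand: ggtccgctttGCGCAGGCGCggcgccccca
SDHA, chr5:218193-218222, plus strand: gtggcatggtGCGCAGGCGCgatgtccccc
SDHA, chr5:218242-218271, plus strand: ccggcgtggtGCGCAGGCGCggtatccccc
SDHA, chr5:218291-218319, plus strand: ccggtgtggtGCGCAGGCGCagtctgcgc
NDUFB4, chr3:120596167-120596196, plus strand: agagcacttcGCGCATGCGCatatcaccga
NDUFB4, chr3:120596263-120596292, plus strand: ctctgctaacGCGCAGGCGCacttcctgaa
UQCRC1, chr3:48609674-48609703, minus strand: gtacggtactGCGCCTGCGCcgcgaccgcc
ATP5MJ, chr14:103921530-103921556, minus strand: tcccctgcgcGCGCCTGCGCgctcggt
ATP5F1C, chr10:7788145-7788174, plus strand: gggagcttcgGCGCATGCGCgctgaggcct
The 4 matches of *SDHA* stand 49 bases apart from each other and end between 157 and 10 bases before the start. In the annotation of the counts *SDHA*, *UQCRC1*, *ATP5MJ* and *ATP5F1C* begin earlier than in RefSeq, and the last 2 stretches of *SDHA* and those of the other genes lie wholly or partly within the gene there. The flank of the second *ATP5ME* match holds the letters of the E-box.

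The second set holds the ETS motif. All lower members with it had their only match within 42 bases of the start, except *ATP5MK* at 153 bases. Those of *ATP5PF*, *COX5B* and *ATP5F1A* likewise lie wholly or partly within the gene as annotated for the counts.
COX8A, chr11:63974591-63974618, plus strand: cagctccagaACTTCCGGccagcgcagc
ATP5PF, chr21:25734905-25734922, minus strand: ggagccagggCCGGAAGT
UQCRH, chr1:46303641-46303668, plus strand: agtgtgccgcACTTCCGGccagatcgcc
COX5B, chr2:97646015-97646042, plus strand: aagcccgcccCCGGAAGTccctcctgtc
ATP5F1A, chr18:46098328-46098355, minus strand: gaggggcagtACTTCCGGgtcaggtggg
ATP5MK, chr10:103396618-103396645, minus strand: tgcaattcttCCGGAAGTgtgggcgggc

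The nuclear members also share short transcripts. Their canonical transcripts had a median of 783.5 bases, beside 3012 over all tested genes, and the lower members a median of 648.5 bases against 945 for those that did not pass. The lower members were also the more abundant, with a median of 81.8 CPM against 48.7 CPM, and had smaller standard errors (median 0.06 against 0.07). When each library was corrected for GC content and transcript length, the nuclear median was -0.13, and 32 nuclear and 6 mitochondrial members were lower. In that fit 20.5% of all tested genes were lower, against 18.0% in the main fit. Whether length or GC content plays a part in the lower levels was not tested.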

How the data were processed

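Strand-specific mRNA libraries were sequenced as single-end reads. Per the paper and the file headers, the authors aligned trimmed reads to GRCh38 (HISAT2) and used featureCounts 1.6.3 to count reads over the exons of each Ensembl gene, by strand; the deposited values are these read counts, not normalized. Reads mapping to several places or overlapping several genes were not counted. The submitters' processing notes also list FastQC, Trim Galore, bcl2fastq 2.19, HTSeq and DESeq2.

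The counts were tested with edgeR 4.0.16 (R 4.3.3): filter by group at a minimum count of 10, TMM factors, robust quasi-likelihood fit, F test, Benjamini-Hochberg adjustment over 15001 genes. Standard errors were derived from the F statistic. The fit was tested on simulated counts. Total counts of 12276313 to 16317672 limit precision for genes with few reads. Symbols, biotypes and lengths came from GENCODE release 44, which matched 58472 of 58884 genes. Groups were taken from the sample labels. The members, the gene lists, the tests and the rule for named genes were chosen with earlier results of these data known. By that rule the text names every mitochondrial member, up to 6 called nuclear members of each complex and direction with the largest changes, the members highest and lowest per length, those that were not tested with their counterparts, fixed carriers and regulators, and up to 3 called genes of each list and direction. Further members were named after their values were seen. Alternatives were other normalizations and filters, DESeq2 1.42.0, limma-voom (limma 3.58.1), the replicate number as a block and each library left out. A correction for GC content and length (splines of 5 degrees of freedom) and the addition of nuclear copies' reads were chosen after seeing the data. Single results for 2 genes are not reported here.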

Additional observations from a re-analysis of the deposited data

How the results depend on the processing

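The 28 lower nuclear members had log2 fold changes below 0 under all 17 alternatives, and 17 of them passed in each of the 6 fits that left a library out. The count of lower mitochondrial members was the least stable: 4 to 10 passed in the fits lacking a library, with 10 without DAPT replicate 1, and *MT-CO3*, *MT-CYB*, *MT-ND2* and *MT-ND3* passed each time. Of all genes tested, 14.3% to 19.1% were lower in these fits. The nuclear members that lost the call in at least 1 of these fits were *NDUFB3* and *NDUFB6* without control replicate 1, *ATP5F1C*, *ATP5MJ*, *COX4I1*, *NDUFA8*, *NDUFB11*, *NDUFB6* and *SDHA* without control replicate 2, *COX4I1*, *NDUFA8*, *NDUFB2*, *NDUFB6* and *SDHA* without control replicate 3, *ATP5F1C*, *ATP5ME*, *NDUFA8*, *NDUFB11*, *NDUFB2* and *NDUFB6* without DAPT replicate 1, *ATP5F1C*, *ATP5MJ*, *ATP5MK*, *COX4I1*, *NDUFB11*, *NDUFB3*, *NDUFB6* and *SDHA* without DAPT replicate 2, and *ATP5MJ*, *COX4I1*, *NDUFA8*, *NDUFB3* and *SDHA* without DAPT replicate 3. *MT-CO1* lost it without control replicate 1 or 2 and without DAPT replicate 2 or 3, and *MT-ND4L* without DAPT replicate 2 (edgeR adjusted p = 0.0521). DESeq2 found 26 lower nuclear and 6 lower mitochondrial members, limma-voom 30 and 9, and no low-count filter 32 and 9. Of all genes tested in these fits, 14.5%, 17.7% and 9.36% were lower, in the same order. Scaling by library size alone moved the nuclear median from -0.13 to -0.087, and of the genes called, 61.5% were then higher in place of 48.7%; the cause was not tested. Over all genes, 5281 passed, and between 3974 (DESeq2) and 5966 (GC content and length correction) under the alternatives.

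Same-numbered libraries were not alike (correlations of their deviations from the group means 0.0173, 0.0252 and 0.00382), so the numbers were not taken to pair them. With the replicate block, 29 nuclear members, 27 of them among the 28, and 8 mitochondrial members were lower, and with the GC content and length correction in the same fit 35 and 8. Of all tested genes 18.2% were lower with the block, and 20.6% with the correction added.

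Among the 98 single genes recomputed under every alternative, changes of sign were seen only in genes that did not pass with all libraries, and the cause was not tested. With a library left out, *MT-ND1* ran from -0.131 to 0.0124, *NDUFV2* from -0.145 to 0.219, *COX6B2* from -0.371 to 0.795, *ATP5PO* from -0.177 to 0.0282, *NRF1* from -0.0218 to 0.0814, *GABPA* from -0.0819 to 0.108, *ESRRA* from -0.211 to 0.00461, *ATP5MC2* from -0.0469 to 0.0144 and *SDHD* from -0.111 to 0.0671. By library size alone, *ATP5MC2* was at 0.0387 and *SDHD* at 0.00325, and of the members outside these 98, *NDUFA6*, *NDUFS3*, *NDUFS7*, *NDUFS8*, *UQCR10*, *UQCRB* and *ATP5PD*, which had not passed, also turned above 0. With the GC content and length correction *ATP5MC2* was at 0.0509 and *GABPA* at -0.0455, and with the block added at 0.0509 and -0.0426. Of the other values of the 98 genes under the alternatives, 1477 kept their direction and side of the threshold, 126 no longer passed and 39 newly passed. At these depths, members under about 2 CPM rest on few reads, and their values are the least certain.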
